A study of Homo sapiens with 12 samples.

Results

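The 10 genes described here belong to the AP-1 transcription factor family and its immediate early companions: FOS, FOSB, FOSL1, FOSL2, JUN, JUNB, JUND, ATF3, EGR1 and IER3. They were chosen as a family, with earlier results of these data known. Matched by symbol to the deposited count tables, all 10 of 10 were found among 58051 gene identifiers. The tables hold poly(A) RNA-seq counts of FaDu, a hypopharyngeal squamous cell carcinoma line, and Cal27, a squamous cell carcinoma line of the tongue. Each line was profiled as parental cells, as cells with acquired resistance to afatinib (AfaR), which blocks several ERBB family receptors, and as cells with acquired resistance to erlotinib (ErlR), which blocks EGFR. There were 2 libraries per group, labelled as biological replicates, and 12 libraries in all. The labels give the same wild-type genotype and the same batch to every sample. The study, however, reports from public data predicted pathogenic variants in both lines, among them NRAS variants in Cal27. The label thus does not mean that the lines share a genotype. By the study's methods, each resistant model was made by stepwise increases of the drug, was kept under drug, and spent a day without it before experiments. Each model is 1 selected population per drug and line, and whether it is clonal is not given in the sources used here. The design asks how the RNA of resistant cells differs from that of the parental cells of the same line.

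AP-1 is a dimer of basic leucine zipper (bZIP) proteins, usually a JUN protein with a FOS protein, with ATF3 as a further partner. Its genes are immediate early genes: signals from receptors such as EGFR pass through RAS, RAF, MEK and ERK to factors already on their promoters, so that FOS, FOSB, JUN, JUNB, EGR1, ATF3 and IER3 can be transcribed within minutes without new protein, and their mRNAs decay quickly. FOSL1 and FOSL2 respond more slowly and last longer, and JUND is expressed more steadily. In squamous epithelium and its carcinomas, FOSL1 is a well-known AP-1 subunit in invasive and migrating cells.

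Gene totals ran from 16334937 to 23399259 counts per library (median 16584450). Spike-in RNA took 3.86% to 5.82% of counts. Both measures split by group. The FaDu parental and AfaR libraries had at least 20156109 counts and at least 5.64% spike-in RNA. All FaDu ErlR and Cal27 libraries had at most 16689855 counts and a lower spike-in share. Depth and spike-in share thus differ together with the groups when FaDu ErlR or Cal27 cells are compared with FaDu parental or AfaR cells. Libraries of a group differed by more than counting error, and none was identical to another. The labels do not say how the biological replicates were separated, so p-values measure the spread between these samples, which may be technical. The squamous keratin KRT5 was at or above 2427 CPM (counts scaled to library size with the TMM method) on average in 5 of the groups. It was 364 ± 79.0 CPM (SD, n = 2) in Cal27 AfaR cells, in which 5 of 6 squamous markers were lower than in parental cells. The T cell marker CD3E was at or near 0 throughout.

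Growth factor and stress signals are known to reach immediate early genes through short promoter elements, and 7 stretches are shown for matches to such elements. RefSeq windows on GRCh38.p14, running from 250 bases before to 50 bases after a gene's start, matched 8 of the 10 genes. FOSL1 and IER3 had no entry, and ATF3 had 2 windows. RefSeq starts can differ from those in the count tables. The FOS stretch thus lies partly, and the JUN stretch wholly, inside the gene spans given further below. Sequences run 5′ to 3′ on the gene's strand, and capitals mark the element. TGACG, the core recognized by CREB and ATF proteins, is in capitals for FOS (chr14:75278758-75278787, plus strand), FOSB (chr19:45467924-45467953, plus strand) and JUNB (chr19:12791336-12791365, plus strand). TGACATCA, a variant of the AP-1 site, is in capitals for JUN (chr1:58784098-58784127, minus strand) and ATF3 (chr1:212565272-212565301, plus strand). TGACGTCA, the cAMP response element, is in capitals for JUND (chr19:18281803-18281832, minus strand). EGR1 (chr5:138465359-138465428, plus strand) has a pair of CArG boxes, the motif of serum response factor, followed by CGTCA, which is TGACG on the other strand.
FOS: agcccgTGACGtttacactcattcataaaa
FOSB: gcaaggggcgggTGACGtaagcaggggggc
JUN: gaaggccttggggTGACATCAtgggctatt
JUNB: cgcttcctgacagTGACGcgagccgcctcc
JUND: gccgcccccaTGACGTCAacccacaaggca
ATF3: tcacctatgataTGACATCAtatggccact
EGR1: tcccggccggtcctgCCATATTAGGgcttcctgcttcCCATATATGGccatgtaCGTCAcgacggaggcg

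Searched on both strands, TGACG was in the windows of 7 of the 8 genes, all but ATF3, and in 24.6% of 35116 RefSeq windows of the same length. CArG boxes were in the EGR1 window alone among the 8 and in 1.29% of all windows, with first bases at -105 and -83 from the start. TGACATCA was in 2 of 8 windows and in 2.61% of all. TGACGTCA, which contains TGACG, was in 1 of 8 and in 1.85% of all, and the AP-1 site TGACTCA was in 1 of 8, that of FOSL2, and in 4.95% of all. TATAAA was in 4 of 8 windows (FOS, FOSB, JUNB and ATF3) and in 11.5% of all. The EGR1 motif GCGGGGGCG was in 0 of 8 and in 5.07% of all. These are matches of letters and say nothing of binding in these cells. Elements further than 250 bases before the start were not searched, so a gene without a match here may have the element outside its window.

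In FaDu AfaR cells EGR1, JUNB and FOSB were lower than in parental cells, and in Cal27 AfaR cells EGR1 and JUNB were lower while FOSL2 was higher. In Cal27 ErlR cells FOSL1 and IER3 were higher and JUND and FOSL2 were lower. In FaDu ErlR cells 0 of the 10 genes were called by edgeR's quasi-likelihood test, with 1 at an unadjusted p under 0.05 and 0 by DESeq2. FOS, the best known of the family, was called in none of these comparisons, and its paired libraries lay far apart in 4 of the 6 groups. A call here is an adjusted p under 0.05 over all genes tested, 15092 in FaDu and 15269 in Cal27, and all 10 genes passed the filter on low counts in every fit. In bulk RNA, fewer cells with a transcript and less of it per cell cannot be told apart.

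The counts of called members are read against the share of all genes called in the same fit. In FaDu AfaR cells 3 of 10 were called, all lower, against 17.9% of all genes called, 10.4% higher and 7.49% lower. In FaDu ErlR cells 0 of 10 were called against 4.18% of all genes, 2.58% higher and 1.6% lower. In Cal27 AfaR cells 3 of 10 were called, 1 higher and 2 lower, against 37.6% of all genes, 19.5% higher and 18.2% lower. In Cal27 ErlR cells 4 of 10 were called, 2 in each direction, against 27.6% of all genes, 12.3% higher and 15.3% lower. With 10 genes, the Cal27 counts stand near the share of all genes, and the FaDu counts differ from it by few genes. None of these counts singles out a property of the family. The median log2 fold change of the 10 genes in FaDu was -0.31 with afatinib and 0.10 with erlotinib resistance, and in Cal27 it was -0.59 and 0.35, with the median of all genes between -0.03 and 0.00. AfaR and ErlR cells of a line were compared with the same parental libraries, so their values are given side by side and no overlap between them is drawn.

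**Figure D1:**
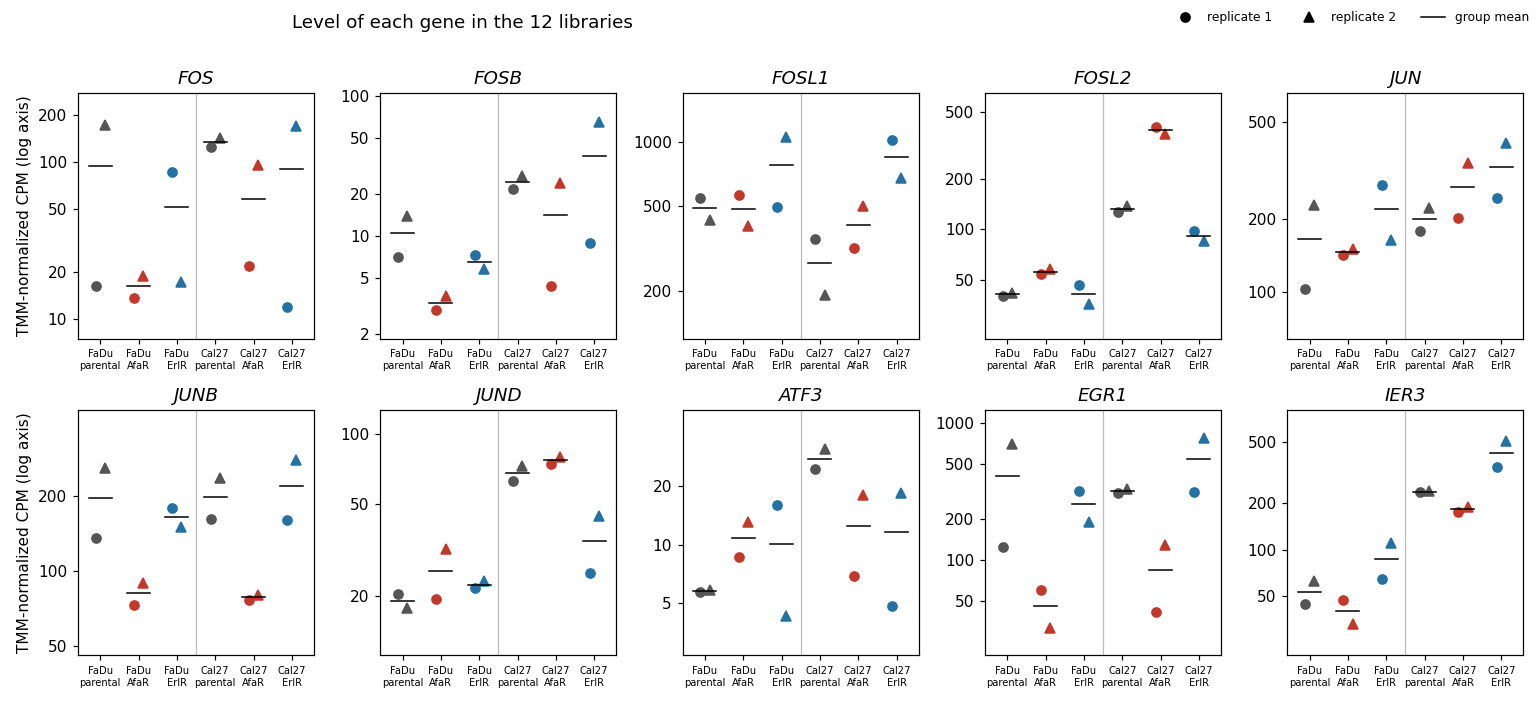
TMM-normalized CPM on a logarithmic axis for each of the 10 genes in 12 libraries, with circles for replicate 1, triangles for replicate 2, short lines for group means, FaDu left and Cal27 right of the vertical line. FOSL2 stood apart in Cal27 AfaR cells at 404 and 369.9 CPM, JUNB was lowest in the AfaR groups of both lines, and FOS libraries of a group lay up to 12.1 against 169 CPM apart.

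FOS (chr14:75278774-75282230, plus strand), the partner of JUN in the classical dimer, was 16.4 and 171 CPM in the FaDu parental libraries, in the order replicate 1 and replicate 2, which holds for every pair of values below. It was 13.8 and 18.7 CPM in FaDu AfaR and 85.7 and 17.4 CPM in FaDu ErlR cells. The FaDu groups overlapped, because parental replicate 1 was as low as the AfaR libraries and ErlR replicate 1 was high. In Cal27 the parental libraries held 125 and 142 CPM, the AfaR libraries 21.7 and 95.3 CPM and those of ErlR 12.1 and 169 CPM. Both Cal27 AfaR libraries were below both parental ones, while the ErlR libraries lay on either side of them. The log2 fold change was -2.54 (SE 0.941, adjusted p = 0.0894) in FaDu AfaR and -1.19 (SE 0.916, adjusted p = 0.333) in Cal27 AfaR cells. It was -0.87 (95% interval -2.87 to 1.12) in FaDu ErlR and -0.59 (95% interval -2.62 to 1.45) in Cal27 ErlR cells. These values rested on single libraries. For FaDu AfaR cells FOS was -3.42 and called without FaDu parental replicate 1, but -0.03 without FaDu parental replicate 2, and in FaDu ErlR cells it ran from -2.44 without FaDu ErlR replicate 1 to 1.64 without FaDu parental replicate 2. In Cal27 AfaR cells it was -0.49 without replicate 1 and -2.60 without replicate 2 of that group. In Cal27 ErlR cells it was -3.46 and called without Cal27 ErlR replicate 2, but 0.32 without Cal27 ErlR replicate 1.

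FOSB (chr19:45467995-45475179, plus strand), a close relative of FOS with the same fast kinetics, was among the least abundant of the 10, with 61 to 1077 counts per library. FaDu parental cells had 7.08 and 13.8 CPM, AfaR cells 2.96 and 3.74 CPM and ErlR cells 7.28 and 5.81 CPM. Both AfaR libraries were under every other FaDu library, and FOSB fell by 1.65 on the log2 scale (SE 0.335, adjusted p = 0.0137). This call was lost without FaDu parental replicate 2 (-1.10), without FaDu AfaR replicate 2 (-1.83) and in a fit of all 12 libraries (-1.63). In Cal27, FOSB was 21.8 and 27.04 CPM in parental, 4.42 and 24.0 CPM in AfaR and 9.00 and 65.8 CPM in ErlR cells. The resistant libraries of Cal27 spread over both sides of the parental ones. The log2 fold change was -0.79 (SE 0.826) in AfaR and 0.59 (SE 0.803) in ErlR cells, neither of them called. The first was -0.03 without Cal27 AfaR replicate 1 and -2.45 without Cal27 AfaR replicate 2, and the second was 1.41 without Cal27 ErlR replicate 1 and turned to -1.43 without Cal27 ErlR replicate 2.

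FOSL1 (chr11:65892049-65900573, minus strand), which encodes FRA-1, a FOS relative without the strong activation domain of FOS, had the highest level per kb of exon of the 10 genes in 5 of the groups. In the FaDu libraries it was 546 and 432 CPM in parental, 562 and 406 CPM in AfaR and 493 and 1059 CPM in ErlR cells. Only ErlR replicate 2 stood out, and the FaDu groups overlapped. The log2 fold change was -0.03 (95% interval -0.71 to 0.64) in FaDu AfaR and 0.65 (SE 0.302, adjusted p = 0.252) in FaDu ErlR cells, the latter called without FaDu ErlR replicate 1 (1.10) and at 0.003 without FaDu ErlR replicate 2. In Cal27, parental cells held 352 and 192 CPM, AfaR cells 319.6 and 501 CPM and ErlR cells 1021 and 680.3 CPM. Both ErlR libraries were above all other Cal27 libraries. FOSL1 rose by 1.62 (SE 0.314, adjusted p = 0.00540) in Cal27 ErlR cells, and the call held without any 1 of the libraries of that line. In Cal27 AfaR cells the change of 0.60 (SE 0.307) was not called. It was 1.10 and called without Cal27 parental replicate 1, and was 0.22 without Cal27 parental replicate 2 and 0.25 without Cal27 AfaR replicate 2.

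FOSL2 (chr2:28392448-28417312, plus strand) encodes FRA-2, the other late FOS relative, and had the closest replicates of the 10 genes. In Cal27 it was 127 and 137 CPM in parental, 404 and 369.9 CPM in AfaR and 97.6 and 84.4 CPM in ErlR cells. The Cal27 groups did not overlap, with AfaR on top and ErlR at the bottom. FOSL2 rose by 1.56 in Cal27 AfaR cells (SE 0.135, adjusted p = 4.03e-05) and fell by 0.56 in Cal27 ErlR cells (SE 0.134, adjusted p = 0.0140). The rise was called without any 1 library of that line, and the fall was not called without Cal27 parental replicate 2 (-0.49) or Cal27 ErlR replicate 2 (-0.43). In FaDu it was 39.9 and 41.8 CPM in parental, 53.8 and 58.1 CPM in AfaR and 46.4 and 35.6 CPM in ErlR cells. The FaDu AfaR libraries were the highest of that line, with a log2 fold change of 0.43 (SE 0.144, adjusted p = 0.0654), called without FaDu ErlR replicate 1 (0.44) or replicate 2 (0.43). In FaDu ErlR cells it was -0.01 (95% interval -0.33 to 0.32).

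Levels per kb of exon allow different genes to be set side by side, though the length used joins all annotated exons of a gene. It was 3238 bases for FOS, 5553 for FOSB, 1887 for FOSL1 and 7157 for FOSL2, so shares depend on which exons are in use. On this scale FOSL1 made up most of the FOS family RNA in every group. Its share ran from 67.8% ± 11.0 (SD, n = 2) in Cal27 parental to 94.8% ± 1.68 in FaDu AfaR cells. FOSL2 held 9.22% ± 2.88 of the family in parental, 19.5% ± 6.68 in AfaR and 2.57% ± 0.191 in ErlR cells of Cal27. FOS itself held 20.8% ± 7.23 in Cal27 parental cells and 1.95% to 9.96% on average in the other groups. FOSB held 2.23% or less on average in every group. The shares within a family sum to a whole, so when the share of a gene rises the others fall.

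**Figure D2:**
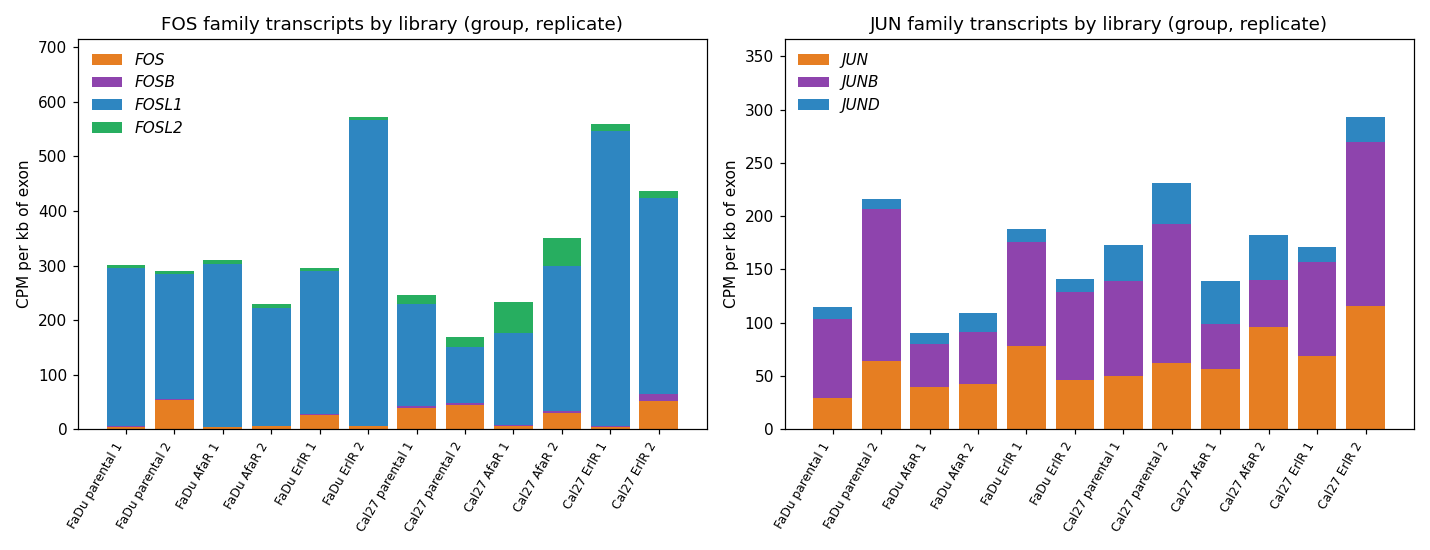
Stacked bars of CPM per kb of exon in each of the 12 libraries for the FOS family (left) and the JUN family (right). FOSL1 filled most of every FOS family bar, FOSL2 was widest in Cal27 AfaR cells (19.5% of the family on average), and JUNB shrank to 27.1% of the JUN family there.

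JUN (chr1:58780788-58784327, minus strand), the founding JUN subunit and itself an AP-1 target, was called in no resistant group. It was 103 and 228 CPM in FaDu parental, 142 and 151 CPM in the AfaR and 275 and 164 CPM in the ErlR cells of that line. The FaDu parental libraries spanned the AfaR ones. In Cal27 it was 178 and 221 CPM in parental, 202 and 340.3 CPM in AfaR and 244 and 411 CPM in ErlR cells. Both Cal27 ErlR libraries were above both parental ones. The log2 fold change there was 0.69 (SE 0.282, adjusted p = 0.0983), called without Cal27 ErlR replicate 1 (1.02) and at 0.30 without Cal27 ErlR replicate 2. In the other comparisons it was -0.20 (95% interval -0.94 to 0.54) in FaDu AfaR, 0.40 (-0.34 to 1.14, and -0.07 to 1.08 with single libraries left out) in FaDu ErlR and 0.44 (-0.19 to 1.07) in Cal27 AfaR cells.

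JUNB (chr19:12791496-12793315, plus strand), a JUN relative that can counter JUN in proliferating cells, was lower in the AfaR cells of both lines. FaDu parental cells held 136 and 259.5 CPM, AfaR cells 73.0 and 89.5 CPM and ErlR cells 179 and 151 CPM. Cal27 parental cells held 161 and 236 CPM, AfaR cells 76.7 and 79.7 CPM and ErlR cells 161 and 279 CPM. In each line both AfaR libraries were below every parental and ErlR library, and the parental and ErlR libraries overlapped. JUNB fell by 1.30 in FaDu AfaR (SE 0.257, adjusted p = 0.0128) and by 1.35 in Cal27 AfaR cells (SE 0.258, adjusted p = 0.00329). The first call was lost without FaDu AfaR replicate 2 (-1.45), and without FaDu parental replicate 2 the fall was smaller (-0.76) but called. The Cal27 call held without any 1 library. In ErlR cells the log2 fold change was -0.27 (95% interval -0.84 to 0.30) in FaDu and 0.12 (-0.45 to 0.69) in Cal27. The JUNB gene shares at most 259 bases of exon with HOOK2 on the opposite strand, which had at most 844 counts in a library against at least 1375 for JUNB. Whether counting used strand is not given in the sources used here.

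JUND (chr19:18279760-18281622, minus strand), the JUN relative with the steadiest expression, was 20.4 and 17.7 CPM in FaDu parental, 19.3 and 31.9 CPM in the AfaR and 21.5 and 23.1 CPM in the ErlR cells of that line. These FaDu libraries lay close together apart from AfaR replicate 2. In Cal27 it was 63.0 and 73.2 CPM in parental, 74.5 and 79.8 CPM in AfaR and 25.2 and 44.1 CPM in ErlR cells. Both Cal27 ErlR libraries were below all others of the line. JUND fell by 1.00 in Cal27 ErlR cells (SE 0.227, adjusted p = 0.0114). The call held without any 1 library, with the value nearest to 0 (-0.65) without Cal27 ErlR replicate 1. In Cal27 AfaR cells the log2 fold change was 0.18 (95% interval -0.32 to 0.68), in FaDu ErlR 0.22 (-0.28 to 0.71) and in FaDu AfaR 0.41 (SE 0.217, adjusted p = 0.211), the last called without FaDu AfaR replicate 1 (0.71) and at 0.007 without FaDu AfaR replicate 2.

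Within the JUN family, per kb of exon, JUNB went from 65.5% ± 0.610 (SD, n = 2) in FaDu parental to 44.8% ± 0.603 in FaDu AfaR cells, and from 53.7% ± 3.32 in Cal27 parental to 27.1% ± 4.48 in Cal27 AfaR cells. JUN was the largest of the 3 in Cal27 AfaR cells at 46.8% ± 8.23, against 28.0% ± 1.48 in Cal27 parental cells. In Cal27, JUND held 18.3% ± 1.84 in parental, 26.1% ± 3.75 in AfaR and 8.00% ± 0.0994 in ErlR cells. The shares in FaDu ErlR cells were 37.1% ± 6.20 for JUN, 55.5% ± 4.37 for JUNB and 7.45% ± 1.83 for JUND.

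ATF3 (chr1:212565334-212620777, plus strand), a stress-induced bZIP factor that can repress as a homodimer, was low, with 66 to 528 counts per library. FaDu parental cells held 5.72 and 5.82 CPM, AfaR cells 8.63 and 12.99 CPM and ErlR cells 15.9 and 4.31 CPM. Both AfaR libraries were above the parental ones, and the ErlR libraries lay on either side. Cal27 parental cells held 24.3 and 30.8 CPM, AfaR cells 6.91 and 18.0 CPM and ErlR cells 4.85 and 18.4 CPM. All 4 resistant libraries of Cal27 were below both parental ones. ATF3 was not called in any of these comparisons, with log2 fold changes of 0.89 (SE 0.479, adjusted p = 0.217) in FaDu AfaR, 0.80 (SE 0.485) in FaDu ErlR, and, for Cal27, -1.15 (SE 0.539, adjusted p = 0.122) with afatinib and -1.27 (SE 0.543, adjusted p = 0.113) with erlotinib resistance. It was called in FaDu AfaR cells without FaDu ErlR replicate 1 (0.89) or replicate 2 (0.88), in Cal27 AfaR cells without Cal27 ErlR replicate 1 or replicate 2 (-1.15 in each case), and in Cal27 ErlR cells without Cal27 ErlR replicate 2 (-2.499). Other libraries moved it the other way, to 0.56 in FaDu AfaR cells without FaDu AfaR replicate 2 and to -0.43 in FaDu ErlR cells without FaDu ErlR replicate 1. In Cal27 it moved to -0.62 in AfaR cells without Cal27 AfaR replicate 1 and to -0.60 in ErlR cells without Cal27 ErlR replicate 1.

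EGR1 (chr5:138465490-138469315, plus strand), a zinc finger factor that is a direct readout of ERK signalling through serum response factor, had the largest change of the 10 genes in FaDu AfaR cells. It was 123 and 695 CPM in FaDu parental, 60.01 and 32.0 CPM in the AfaR and 318 and 189 CPM in the ErlR cells of that line. Both AfaR libraries were under all other FaDu libraries, though the parental pair was itself far apart. EGR1 fell by 3.17 in FaDu AfaR cells (SE 0.675, adjusted p = 0.0161), a call lost without FaDu AfaR replicate 2 (-2.79). It was -1.45 without FaDu parental replicate 2 and -3.95 without FaDu parental replicate 1, both called. In Cal27, parental cells held 307 and 331 CPM, AfaR cells 41.4 and 128 CPM and ErlR cells 311 and 780.3 CPM. Both Cal27 AfaR libraries were below every parental and ErlR library. EGR1 fell by 1.91 in Cal27 AfaR cells (SE 0.504, adjusted p = 0.0151), with -1.31 and no call without Cal27 AfaR replicate 1 and -2.93 without Cal27 AfaR replicate 2. In ErlR cells the log2 fold change was -0.70 (95% interval -2.10 to 0.69) in FaDu and 0.75 (-0.34 to 1.84) in Cal27. The first turned to 1.03 without FaDu parental replicate 2, and the second to -0.03 without Cal27 ErlR replicate 2.

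IER3 (chr6:30743199-30744554, minus strand), an immediate early gene whose product feeds back on ERK and cell survival, was 44.3 and 62.1 CPM in FaDu parental, 47.2 and 33.0 CPM in the AfaR and 64.3 and 110.2 CPM in the ErlR cells of that line. Both FaDu ErlR libraries were above the other FaDu libraries. In Cal27 it was 235 and 239.8 CPM in parental, 176 and 188 CPM in AfaR and 342 and 502 CPM in ErlR cells. The Cal27 groups did not overlap, with ErlR highest and AfaR lowest. IER3 rose by 0.80 in Cal27 ErlR cells (SE 0.176, adjusted p = 0.00952). The call held without any 1 library, with the value nearest to 0 (0.53) without Cal27 ErlR replicate 2. The change of -0.38 in Cal27 AfaR cells (SE 0.176, adjusted p = 0.115) was called without Cal27 ErlR replicate 1 or replicate 2 (-0.38 in each case). In FaDu the log2 fold change was 0.70 (SE 0.267, adjusted p = 0.170) in ErlR cells, with 0.26 without FaDu ErlR replicate 2, and -0.43 (SE 0.268, adjusted p = 0.286) in AfaR cells. An antisense transcript, IER3-AS1, shares at most 359 bases of exon with IER3 and had at most 7 counts in a library, against at least 803 for IER3.

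**Figure D3:**
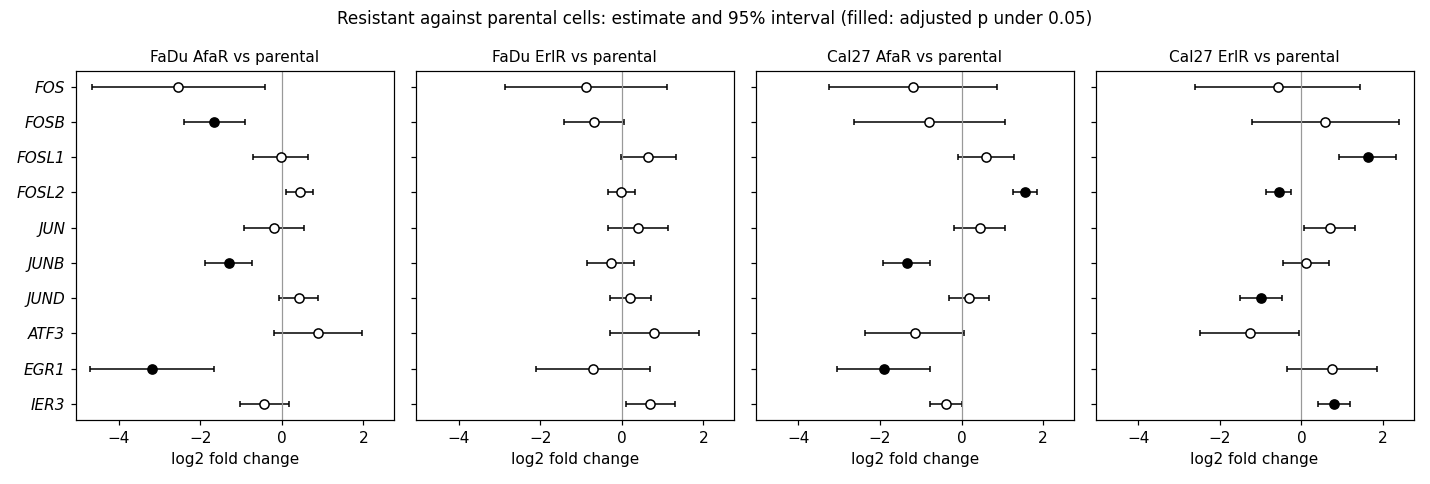
Log2 fold change (x axis) of the 10 genes (y axis) in each resistant group against the parental group of its line, with 95% intervals from the fit and filled points where the adjusted p was under 0.05. JUNB (-1.30 and -1.35) and EGR1 (-3.17 and -1.91) were filled on the left in the AfaR panels of both lines, FOSL2 (1.56) stood to the right in Cal27 AfaR and FOSL1 (1.62) in Cal27 ErlR cells, and no point was filled in FaDu ErlR cells.

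Groups that did not overlap were common in all comparisons, since they held 2 libraries each. In FaDu AfaR cells 5 of the 10 genes did not overlap with parental cells, against 65% of all genes, and in FaDu ErlR cells 2 of 10 against 53.7%. In Cal27 AfaR cells 7 of 10 did not overlap, against 72.1%, and in Cal27 ErlR cells 6 of 10 against 67.4%. These counts were near or under the share of all genes.

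With scaling to the ERCC spike-ins, the median log2 fold change of all genes was 0.18 in the AfaR and 0.49 in the ErlR cells of FaDu, and 0.01 and 0 in those of Cal27, against values between -0.03 and 0.00 with TMM. With that scaling, 90.5% of all calls in FaDu AfaR cells and 98.4% in FaDu ErlR cells were higher, against 58.0% and 61.6% with TMM. In FaDu ErlR cells 5747 of 15092 genes were then called, 5655 of them higher, against 631 with TMM, and 5 of the 10 genes were among those called higher: IER3 (1.16, which is 0.67 above the median of all genes), FOSL1 (1.10, 0.61 above it), ATF3 (1.35, 0.86 above it), JUN (0.92, 0.43 above it) and JUND (0.70, 0.21 above it). JUNB was 0.23 and FOSL2 0.50 on that scale, against -0.27 and -0.01 with TMM, and neither was called. In FaDu AfaR cells the falls of EGR1 (-2.996), JUNB (-1.11) and FOSB (-1.47) were called with spike-in scaling too, and FOSL2 (0.62) was called higher. The spike-in share of counts was itself lower in both FaDu ErlR libraries than in the FaDu parental and AfaR libraries. The reason for that difference was not tested.

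The resistant models of a line were also set against each other, which asks how cells selected with afatinib differ from cells selected with erlotinib. In Cal27, FOSL2 (2.11, SE 0.138, adjusted p = 6.31e-06) and JUND (1.18, SE 0.228, adjusted p = 0.00231) were higher in AfaR than in ErlR cells. EGR1 (-2.66, SE 0.517, adjusted p = 0.00239), JUNB (-1.46, SE 0.259, adjusted p = 0.00143), IER3 (-1.19, SE 0.178, adjusted p = 0.000585) and FOSL1 (-1.03, SE 0.309, adjusted p = 0.0206) were lower. These 6 of 10 calls stand beside 49.6% of all genes called in this comparison, 26.5% higher and 23.2% lower. The groups did not overlap for 6 of 10, against 76.7% of all genes. The FOSL1 call was lost without Cal27 AfaR replicate 1 (-0.74), without Cal27 ErlR replicate 1 (-0.71) and with DESeq2 (-1.04), while the other 5 held without any 1 library. FOSB (-1.38, SE 0.826) was called lower without Cal27 AfaR replicate 2 (-3.04) or Cal27 ErlR replicate 1 (-2.20) and was 0.65 without Cal27 ErlR replicate 2. ATF3 (0.12, SE 0.550) was called higher without Cal27 ErlR replicate 2 (1.35) and was -0.72 without Cal27 AfaR replicate 2. FOS was -0.61 (SE 0.911, adjusted p = 0.609) and turned to a called 2.27 without Cal27 ErlR replicate 2. It was 0.10 without Cal27 AfaR replicate 1 and -2.02 without Cal27 AfaR replicate 2, neither called, so that its direction rested on single libraries.

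In FaDu, EGR1 (-2.47, SE 0.659, adjusted p = 0.0354), IER3 (-1.13, SE 0.269, adjusted p = 0.0245) and JUNB (-1.03, SE 0.256, adjusted p = 0.0285) were lower in AfaR than in ErlR cells. These 3 of 10 stand beside 15.7% of all genes called, 8.06% higher and 7.65% lower. The groups did not overlap for 6 of 10, against 60.1% of all genes. Every one of the calls was lost without FaDu AfaR replicate 2 (EGR1 -2.08, IER3 -0.89, JUNB -1.18) and without FaDu ErlR replicate 2 (EGR1 -2.80, IER3 -0.69, JUNB -1.15). The EGR1 and JUNB calls were also lost without FaDu AfaR replicate 1 (-3.001 and -0.90) and without FaDu ErlR replicate 1 (-2.04 and -0.89). The other 7 genes had log2 fold changes from -1.67 (FOS, SE 0.929) to 0.44 (FOSL2, SE 0.145), none of them called. Of these, FOSL1 (-1.13), FOSL2 (0.65) and ATF3 (1.33) were called without FaDu ErlR replicate 1, and FOSB (-0.98) without FaDu parental replicate 1. Without FaDu ErlR replicate 2, FOSL1 was -0.04 and ATF3 -0.57, and FOS was -0.09 without FaDu ErlR replicate 1.

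The effect of resistance was compared between the lines with an interaction term over all 12 libraries, written as the log2 fold change in FaDu minus that in Cal27. For AfaR, FOSL2 alone was called, at -1.10 (SE 0.190, adjusted p = 0.00182), and the call held without any 1 library. This is 1 of 10 beside 18.6% of 16240 genes, 10.5% higher and 8% lower. JUNB, which was lower in AfaR cells of both lines, differed by 0.07 between them (95% interval -0.84 to 0.97), and EGR1 by -1.24 (-3.33 to 0.84). For ErlR, JUND alone was called, at 1.20 (SE 0.355, adjusted p = 0.0338), again 1 of 10 beside 18.6% of all genes, 9.8% higher and 8.8% lower. The JUND call was lost without FaDu parental replicate 1 (1.32) or replicate 2 (1.10), FaDu ErlR replicate 1 (1.25) or replicate 2 (1.16), Cal27 parental replicate 2 (1.09) or Cal27 ErlR replicate 1 (0.87). FOSL1 (-0.98, SE 0.511) and FOSL2 (0.54, SE 0.192) were called without FaDu ErlR replicate 2 (-1.63 and 0.72), and ATF3 (2.05, SE 0.870) without FaDu ErlR replicate 2 (2.71) or Cal27 ErlR replicate 2 (3.31). Without FaDu ErlR replicate 1 the FOSL1 difference was -0.53 and that of ATF3 0.83.

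Before resistance, the lines already differed in 4 of the genes, against 55.6% of all genes called, 28.7% higher and 26.8% lower. Groups did not overlap for 6 of 10, against 79.5% of all genes. Cal27 parental cells had more ATF3 (log2 fold change 2.25, SE 0.625, adjusted p = 0.00836), IER3 (2.16, SE 0.265, adjusted p = 2.32e-05), JUND (1.84, SE 0.254, adjusted p = 6.14e-05) and FOSL2 (1.69, SE 0.138, adjusted p = 8.99e-07) than FaDu parental cells. These calls held without any 1 of the 12 libraries. FOSL1 was -0.85 (SE 0.363, adjusted p = 0.0640), called without FaDu ErlR replicate 1 or replicate 2 (-0.86 in each case) or Cal27 parental replicate 1 (-1.35). JUNB differed by 0.01 (95% interval -0.63 to 0.65), JUN by 0.27 (-0.52 to 1.06), EGR1 by -0.36 (-1.82 to 1.09) and FOS by 0.51 (-1.83 to 2.85). With spike-in scaling the median of all genes between the parental lines was 0.62, against 0.04 with TMM. Line and medium differ together, so that their parts cannot be told apart.

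The log2 ratio of replicate 2 to replicate 1 for FOS was 3.38 in FaDu parental, -2.30 in FaDu ErlR, and 2.13 and 3.80 in the AfaR and ErlR cells of Cal27, but 0.44 in FaDu AfaR and 0.18 in Cal27 parental cells. EGR1 moved with FOS in the first 4 of these groups (2.495, -0.75, 1.63 and 1.32), and ATF3 in 3 of them (-1.88, 1.38 and 1.92) but not in FaDu parental cells (0.02). In FaDu AfaR and Cal27 parental cells EGR1 was -0.91 and 0.11, ATF3 0.59 and 0.34, and FOSL1 -0.47 and -0.88. EGR1 thus went the other way from FOS in FaDu AfaR cells, and FOSL1 did so in both of these groups. FOSL1 went the other way from FOS in FaDu parental (-0.34), FaDu ErlR (1.10) and Cal27 ErlR cells (-0.59) and the same way in Cal27 AfaR cells (0.65), and FOSL2 stayed between -0.38 and 0.11 in all groups. Of the 10 genes, 3 differed by over 2-fold in FaDu parental, 3 in FaDu ErlR, and 4 each in the AfaR and ErlR cells of Cal27, and 0 in FaDu AfaR and Cal27 parental cells. Over all genes the share was between 5.77% and 10.3%.

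**Figure D4:**
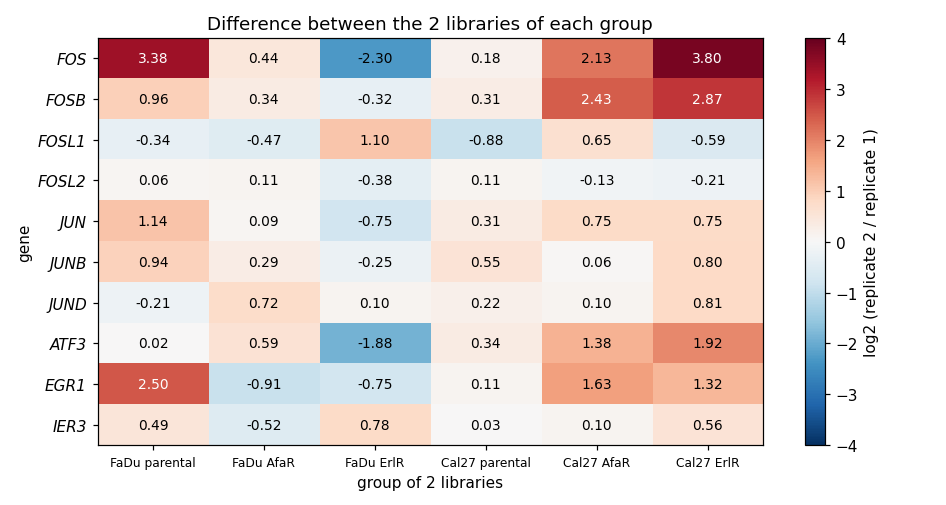
Heat map of the log2 ratio of replicate 2 to replicate 1 for each of the 10 genes (y axis) in the 6 groups (x axis), red where replicate 2 was higher and blue where replicate 1 was. The top row, FOS, ran from -2.30 in FaDu ErlR to 3.80 in Cal27 ErlR cells, while FOSL2 was pale throughout.

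Among other immediate early genes, replicate 2 was higher for 22 of 26 in FaDu parental, 18 in FaDu AfaR and 13 in FaDu ErlR cells. In Cal27 it was higher for 22 of 26 in parental, 23 in AfaR and 18 in ErlR cells. The lean to replicate 2 was thus also present in FaDu AfaR and Cal27 parental cells, where the FOS libraries lay close. For stress chaperones replicate 2 was higher for 1 of 10 in FaDu parental, 7 in FaDu AfaR and 1 in FaDu ErlR cells. In Cal27 these counts were 4 of 10 in parental, 9 in AfaR and 2 in ErlR cells. The part of a stress response in these differences was not tested.

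The wider pathway was read from lists chosen by function, with genes named by the size of their change. Of 26 other immediate early genes tested, 3 rose and 7 fell in the AfaR and 1 rose and 1 fell in the ErlR cells of FaDu, while 8 rose and 6 fell in the AfaR and 7 rose and 2 fell in the ErlR cells of Cal27. TRIB1, a pseudokinase that steers protein turnover, fell by 1.45 in FaDu AfaR (12.4 ± 1.16 against 33.5 ± 5.13 CPM, SD, n = 2) and rose by 1.25 in Cal27 ErlR cells (48.4 ± 9.20 against 20.1 ± 3.19 CPM). MYC, the growth regulator, fell by 2.08 in Cal27 AfaR cells (93.1 ± 15.0 against 393 ± 39.9 CPM). SGK1, a kinase related to AKT, fell by 2.53 in Cal27 AfaR and by 3.04 in Cal27 ErlR cells, from 207 ± 60.5 CPM in parental cells to 35.9 ± 7.84 and 25.6 ± 2.24 CPM. KLF6, a zinc finger factor, rose by 0.99 in Cal27 AfaR cells (100.4 ± 28.0 against 50.6 ± 2.17 CPM), and CSRNP1 rose by 1.51 in Cal27 ErlR cells (28.5 ± 2.55 against 9.84 ± 2.56 CPM). IER2, a nuclear immediate early protein, fell by 1.19 in FaDu AfaR and by 1.28 in Cal27 AfaR cells. The first IER2 call was lost without FaDu parental replicate 2 (-0.64) or FaDu AfaR replicate 2 (-1.05), and the other without Cal27 AfaR replicate 1 (-1.01).

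Other bZIP genes, listed as partners or relatives of JUN or FOS, were tested too. Of these 19, 1 rose and 2 fell in the AfaR and 1 rose and 0 fell in the ErlR cells of FaDu. In Cal27, 4 rose and 5 fell in the AfaR and 2 rose and 7 fell in the ErlR cells. MAFF, a small MAF protein, fell by 1.79 in Cal27 AfaR (19.1 ± 3.38 against 65.9 ± 0.0711 CPM) and rose by 1.19 in Cal27 ErlR cells (153 ± 10.2 CPM). In FaDu AfaR cells MAFF fell by 1.18 (15.2 ± 0.187 against 33.9 ± 4.22 CPM), a call lost without FaDu parental replicate 1 (-1.05) or FaDu AfaR replicate 2 (-1.19). ATF4, the factor of the integrated stress response, fell by 1.07 in Cal27 AfaR and by 1.42 in Cal27 ErlR cells, from 303 ± 57.0 CPM to 144 ± 3.94 and 115 ± 31.2 CPM. JDP2, a repressor that pairs with JUN proteins, fell by 1.51 in Cal27 ErlR cells (8.17 ± 4.07 against 22.9 ± 5.08 CPM).

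Of 22 kinases and factors upstream of FOS and JUN, 3 rose and 2 fell in the AfaR and 0 were called in the ErlR cells of FaDu (2 at an unadjusted p under 0.05), while 3 rose and 4 fell in the AfaR and 4 rose and 4 fell in the ErlR cells of Cal27. MAP2K1, which encodes the ERK kinase MEK, fell by 1.18 in Cal27 AfaR cells (68.3 ± 6.05 against 155 ± 3.63 CPM). RPS6KA4, a kinase that marks chromatin at immediate early genes, rose by 1.19 in Cal27 ErlR cells (548 ± 76.8 against 237 ± 52.4 CPM), and its relative RPS6KA5 fell by 1.60 in Cal27 AfaR cells (6.27 ± 0.240 against 19.0 ± 4.02 CPM).

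Of 9 regulators of the turnover of JUN and FOS proteins and of early mRNAs, 0 rose and 3 fell in the AfaR and 0 were called in the ErlR cells of FaDu (3 at an unadjusted p under 0.05), while 2 rose and 4 fell in the AfaR and 1 rose and 0 fell in the ErlR cells of Cal27. ZFP36L2, a protein that speeds the decay of AU-rich mRNAs, fell by 1.17 in Cal27 AfaR (22.0 ± 3.54 against 49.6 ± 7.44 CPM) and rose by 0.84 in Cal27 ErlR cells (90.0 ± 8.07 CPM). Its relative ZFP36L1 rose by 0.86 in Cal27 AfaR cells (312 ± 17.9 against 173 ± 14.8 CPM).

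Of 18 textbook AP-1 targets tested in FaDu, 2 rose and 6 fell in AfaR and 2 rose and 2 fell in ErlR cells, and of 16 tested in Cal27, 6 rose and 3 fell in AfaR and 8 rose and 3 fell in ErlR cells. The ErlR libraries stood apart from each other for this list: replicate 2 was higher for 17 of 18 in FaDu ErlR cells (median log2 ratio 1.03, 11 over 2-fold), and for 2 of 16 in Cal27 ErlR cells (7 over 2-fold), where the summed levels were 11248 and 6532 CPM. The collagenase MMP13 fell by 2.55 in FaDu AfaR and by 4.22 in FaDu ErlR cells, from 96.5 ± 29.8 CPM to 16.7 ± 6.05 and 5.23 ± 3.60 CPM. The cytokine IL6 rose by 2.499 in Cal27 AfaR cells (213 ± 2.32 against 37.7 ± 13.7 CPM), where HBEGF, a ligand of EGFR, fell by 2.51 (8.23 ± 3.78 against 46.9 ± 6.60 CPM). The chemokine CXCL8 fell by 3.70 in Cal27 ErlR cells (43.3 ± 24.8 against 552 ± 251 CPM).

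Other groups of genes moved beside the members in Cal27. Over all genes, 19.5% were called higher and 18.2% lower in Cal27 AfaR cells, and 12.3% and 15.3% in Cal27 ErlR cells. In FaDu these shares were 10.4% and 7.49% in AfaR and 2.58% and 1.6% in ErlR cells. In Cal27 AfaR cells, where FOSL2 rose and JUNB and EGR1 fell, 5 of 6 squamous markers fell and their summed level was 3418 to 4543 CPM in parental and 812 to 897 CPM in AfaR cells. Of 4 fibroblast markers tested of 6, 3 rose, with summed levels of 29.1 to 40.0 CPM in parental and 313 to 325 CPM in AfaR cells, and DCN and PDGFRA were near 0 (0.06 and 0.03 CPM). Their part in the changes of FOSL2, JUNB and EGR1 was not tested. In Cal27 ErlR cells, where FOSL1 and IER3 rose, 7 of 10 chaperones rose and 1 fell, with summed levels of 6252 to 7368 CPM in parental and 9833 to 11069.5 CPM in ErlR cells. HSPH1 rose by 1.43 (527 ± 99.5 against 192 ± 17.1 CPM) and DNAJA1 by 1.08 (696 ± 111 against 324 ± 0.391 CPM). Of 4 fibroblast markers tested, 0 rose and 3 fell there, with summed levels of 4.34 to 9.89 CPM, 1 squamous marker rose and 2 of 6 fell, and 1 of 2 endothelial markers fell. The part of these groups in the changes of the AP-1 genes was not tested. In FaDu AfaR cells 0 of 10 chaperones rose and 2 fell, and in FaDu ErlR cells 0 were called (1 at an unadjusted p under 0.05).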

How the data were processed

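Poly(A)-selected RNA with ERCC spike-ins was measured in 12 libraries. Per the labels, reads were trimmed with Trimmomatic 0.36, aligned to GRCh38 with STAR 2.5.2b and counted with featureCounts of Subread 1.5.2. The authors deposited raw read counts per Ensembl gene, and for each resistant group a normalized signal, which is the raw count divided by 1 size factor per library. Symbols came from GENCODE, in which 56948 of 58051 identifiers were found, and 0 columns lacked a sample.

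The quasi-likelihood test of edgeR 4.0.16 (R 4.3.3; TMM, filterByExpr, Benjamini-Hochberg) was run on the counts, with 1 fit per line (6 libraries, 3 residual degrees of freedom), and 1 fit over 12 libraries for differences between lines. The 92 spike-in rows were left out. The scripts were tested on simulated data. Alternatives were DESeq2 1.42.0, other scalings, filters, fits, a replicate block and each library left out.

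The members and lists were chosen with earlier results of these data known. Other list genes were named by rule: up to 3 called genes per direction with the largest change and at least 5 CPM, of which those whose call held without any 1 library are given, or else the library is named. SD is over 2 libraries. Some genes that the rule names are not reported here.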

Additional observations from a re-analysis of the deposited data

Results flagged for a closer look

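The change of FOSL2 with afatinib resistance differed between the lines by -1.10 (log2, FaDu minus Cal27) in a test of the difference itself. FOSL2 rose by 1.56 in Cal27 AfaR cells and was 0.43, not called, in FaDu AfaR cells, and the difference was called without any 1 of the 12 libraries.

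The change of JUND with erlotinib resistance differed between the lines by 1.20 (log2, FaDu minus Cal27) in the same kind of test. JUND fell by 1.00 in Cal27 ErlR cells and was 0.22 (95% interval -0.28 to 0.71) in FaDu ErlR cells, and the difference was called in 6 of 12 fits that left out a library.

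Groups of 2 libraries are too small for a test of a library standing apart from its group.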

How the results depend on the processing

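With 2 libraries per group and 3 residual degrees of freedom per line, the intervals of FOS and FOSB were wide, and a value that was not called does not show that a gene kept its level. Without any 1 library, the number of members called ranged from 0 to 5 with afatinib and 0 to 1 with erlotinib resistance in FaDu, 2 to 5 and 3 to 5 in Cal27, 0 to 4 between the FaDu models, 5 to 8 between the Cal27 models, 1 to 1 for the AfaR and 0 to 3 for the ErlR difference between lines, and 4 to 5 between parental lines. Each of these fits leaves 1 library in a group. Without FaDu AfaR replicate 2, calls over all genes also became fewer in the FaDu AfaR comparisons. A lower count there is thus not particular to the members. FOS between Cal27 AfaR and ErlR cells reversed to 2.27 without Cal27 ErlR replicate 2, with values down to -2.02 without Cal27 AfaR replicate 2.

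Without the filter on low counts, 7 members were called with afatinib and 6 with erlotinib resistance in FaDu, 8 and 9 in Cal27, 8 between the FaDu models, 6 and 5 for the AfaR and ErlR differences, and 8 between parental lines. In that fit the prior degrees of freedom were infinite, so the spread of single genes was not used. With the filter they were 6.31 in FaDu and 6.39 in Cal27. Without it, 3686 and 1728 of 28701 genes were called in FaDu and 6221 and 4912 of 29055 in Cal27. Between the FaDu models 3470 genes were called, for the AfaR and ErlR differences 3505 and 3530, and between parental lines 9080. Spike-in scaling gave 5 calls in FaDu ErlR, 6 between the FaDu models and 3 for the ErlR difference, where 5747, 4259 and 4048 of all genes were called, against 631, 2371 and 3021 with TMM. Upper-quartile scaling and a minimum of 10 counts in every library each gave 2 for the ErlR difference, where 2982 and 2745 genes were called. At an unadjusted p under 0.05 there were 5 in FaDu AfaR and 1 in FaDu ErlR, where 5306 and 3205 of 15092 genes passed. Between the FaDu models there were 6, beside 4977 of all genes. The AfaR difference gave 2 and the ErlR difference 3, beside 5166 and 5381 of 16240 genes. Fits of the 4 libraries compared gave 5 in FaDu AfaR and 5 in Cal27 AfaR, where 2598 and 5860 of all genes were called. The share of all calls that were higher was 14.5% with spike-ins and 63.2% with upper quartiles against 51.3% between the FaDu models, 71.7% with upper quartiles against 58.0% in FaDu AfaR, 71.6% and 93.0% with spike-ins against 56.9% and 52.7% for the AfaR and ErlR differences, and 82.2% against 51.7% between parental lines.

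Same-numbered libraries were not shown to share a source: correlations of their deviations ran from -0.20 to 0.11. With the replicate block, 5 members were called in Cal27 AfaR (FOS, -1.80, and ATF3, -1.33, in addition), 6 in Cal27 ErlR (JUN, 0.65, and ATF3, -1.52, in addition) and 2 for the AfaR difference, and the EGR1 call between the FaDu models was lost (-2.47). Over all genes, the block gave 5238 calls in Cal27 AfaR, 3693 in Cal27 ErlR and 2570 for the AfaR difference. A crossed pairing, chosen after seeing the data, gave 0 calls in FaDu ErlR and 4 in Cal27 AfaR, where 990 and 6312 of all genes were called. Signs changed between uncalled values in 76 of 2734 refitted values. Ratios from the deposited normalized counts differed from those used here by at most 0.0344 (log2) over 40 ratios. The other causes of these differences were not tested.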
